A study of Mus musculus with 38 samples.

Results

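The 10 genes examined encode core basement membrane proteins and were followed across bone-lining niche cells and myeloma cells from mice. The genes were Col4a1, Col4a2, Lama4, Lama5, Lamb1, Lamb2, Lamc1, Nid1, Nid2 and Hspg2, chosen by symbol, and all 10 were found among the 13260 genes of the expression table. All mice were C57Bl/KaLwRijHsd, aged 8 to 10 weeks, and received either phosphate-buffered saline (healthy) or 5TGM1-GFP cells (myeloma-bearing) by intravenous injection, with tissue taken at day 23. The 5TGM1 line is a transplantable mouse myeloma line marked with green fluorescent protein, so every myeloma-bearing mouse carried the same tumour line. From bone treated with collagenase, 3 niche cell types were sorted as CD45-Ter119- cells: endothelial cells (CD31+), stromal progenitors (Sca1+ALCAM-CD31-) and osteoprogenitors (ALCAM+Sca1-CD31-). GFP+ myeloma cells were sorted from the bone lining and from the central marrow. Each of the 38 libraries was made from 100 cells. Endothelial cells and stromal progenitors had 5 healthy and 5 myeloma-bearing libraries each, osteoprogenitors had 4 and 4, and 5TGM1 cells had 5 from the bone lining and 5 from the central marrow.

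A basement membrane is a thin sheet of matrix that underlies endothelium and wraps pericytes and other cells. Laminins, each a trimer of an alpha, a beta and a gamma chain, assemble a polymer at the cell surface, and collagen IV, a trimer in which alpha1 and alpha2 chains combine, forms a second network. Nidogens and the heparan sulfate proteoglycan perlecan link both networks. In marrow, sinusoids have a thin and discontinuous basement membrane, and laminins containing alpha4 or alpha5 are the usual endothelial forms.

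The members are spread over the genome, with one exception (GRCm38, GENCODE vM21). Col4a1 (chr8:11198423-11312826, minus strand) and Col4a2 (chr8:11312805-11449287, plus strand) lie head to head, and their annotated 5′ ends share 22 bases. The shared stretch is shown because both genes start there, and on the plus strand it reads as follows, with a GC box in capitals.
chr8:11312805-11312826: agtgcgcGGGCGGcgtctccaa
Lama4 (chr10:38965515-39110188, plus), Lama5 (chr2:180176373-180225859, minus), Lamb1 (chr12:31265234-31329644, plus), Lamb2 (chr9:108479736-108490530, plus) and Lamc1 (chr1:153218922-153332786, minus) encode laminin chains. Nid1 (chr13:13437551-13512269, plus), Nid2 (chr14:19751265-19811787, plus) and Hspg2, which encodes perlecan (chr4:137468769-137570630, plus), encode the linkers.

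RefSeq promoter sequence was at hand for 7 of the 10 members (GRCm38.p6), and none for Lama4, Lamc1 and Nid2. The bases upstream of the annotated start are printed for 4 genes, of which Nid1, Lamb1 and Lama5 were called higher in healthy endothelial cells and Lamb2 was not called. Lama5 had no independent test, and the healthy calls of Nid1 and Lamb1 were lost in some alternative fits, as given below. No link of these bases to levels was tested. Each is read 5′ to 3′ on the gene's own strand, with the GC box GGGCGG and the box CCAAT, searched on both strands, in capitals.
Nid1, chr13:13437352-13437550: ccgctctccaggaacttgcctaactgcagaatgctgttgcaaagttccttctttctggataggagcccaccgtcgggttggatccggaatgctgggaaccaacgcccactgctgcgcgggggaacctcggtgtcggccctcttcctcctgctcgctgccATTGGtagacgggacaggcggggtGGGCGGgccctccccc
Lamb1, chr12:31265043-31265233: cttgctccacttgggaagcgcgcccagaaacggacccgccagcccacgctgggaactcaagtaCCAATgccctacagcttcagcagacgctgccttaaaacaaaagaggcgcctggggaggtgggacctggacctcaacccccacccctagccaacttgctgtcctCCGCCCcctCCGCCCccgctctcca
Lama5, chr2:180225860-180226109: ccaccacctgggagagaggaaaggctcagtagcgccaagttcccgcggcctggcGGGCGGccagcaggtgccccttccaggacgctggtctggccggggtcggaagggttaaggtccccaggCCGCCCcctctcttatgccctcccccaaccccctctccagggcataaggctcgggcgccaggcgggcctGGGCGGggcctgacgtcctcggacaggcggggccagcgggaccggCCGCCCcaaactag
Lamb2, chr9:108479612-108479735: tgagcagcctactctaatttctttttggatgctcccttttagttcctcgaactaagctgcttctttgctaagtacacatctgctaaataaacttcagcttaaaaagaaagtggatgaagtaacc
In the 250 bases before the RefSeq start, GGGCGG was found 4 times for Lama5, 5 times for Hspg2, 2 times for each of Lamb1 and Col4a2, once for Nid1 and not for Lamb2 or Col4a1. Of 32851 mouse promoter windows of that length, 32.7% held GGGCGG and 33.8% held CCAAT. The latter was found once each for Col4a1, Col4a2, Lamb1 and Nid1. The GC content was 43.6% for Lamb2 and 62.0% to 74.4% for the other 6, against a median of 52.4% over all windows. None of the 7 windows held TATAAA, CCGGAAGT or AGATAA, which 12.4%, 2.88% and 9.99% of all windows held.

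Levels are in RPKM, reads per kilobase of transcript scaled to library size. The scaling by length lets levels of different genes be set side by side, but even coverage along these transcripts was not tested. Shares and ratios between genes rest on it. Whole reads could be recovered from the table, giving 9735031 to 34883291 reads on genes per library. One read of a member was worth 0.00381 to 0.011 RPKM in the median library, so levels above 1 RPKM rested on many reads, although reads from 100 cells amplified by polymerase chain reaction are not independent molecules. The sorts carried their defining markers. Cdh5 (VE-cadherin) was 135 to 392 RPKM in endothelial libraries and at most 2.39 RPKM in any other, and Alcam was 1.97 RPKM or more in every osteoprogenitor library and at most 1.43 RPKM elsewhere. Some markers of mural cells, which cover vessels and make basement membrane too, were also present. Others were under 1 RPKM in every library of a group. These were Notch3 in myeloma-bearing endothelial cells, Myh11 and Abcc9 in healthy stromal progenitors, and Myh11 and Higd1b in osteoprogenitors of both conditions, among others. The summed level of the 10 listed mural genes was 420 to 1158 RPKM in endothelial cells, 21.5 to 735 RPKM in stromal progenitors and 20.7 to 128 RPKM in osteoprogenitors, and the part of mural RNA in the results below was not tested. One endothelial library stood apart: healthy replicate L had the highest level of Col4a1, Col4a2, Lamb1, Nid1, Nid2 and Hspg2 of all 38 except for Hspg2 in 1 stromal library, so calls that are lost without it are named. Without it, 3 of the 9 members then tested were called higher in each healthy endothelial comparison, where 6.39% (against stromal progenitors) and 5.64% (against osteoprogenitors) of all genes were. The drop was not particular to L. Without N or without O, 3 of 9 were called against stromal progenitors (393 of 7460 and 391 of 7476 genes higher). Against osteoprogenitors 2 of 9 were (298 of 6755 and 276 of 6792 genes).

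**Figure D1:**
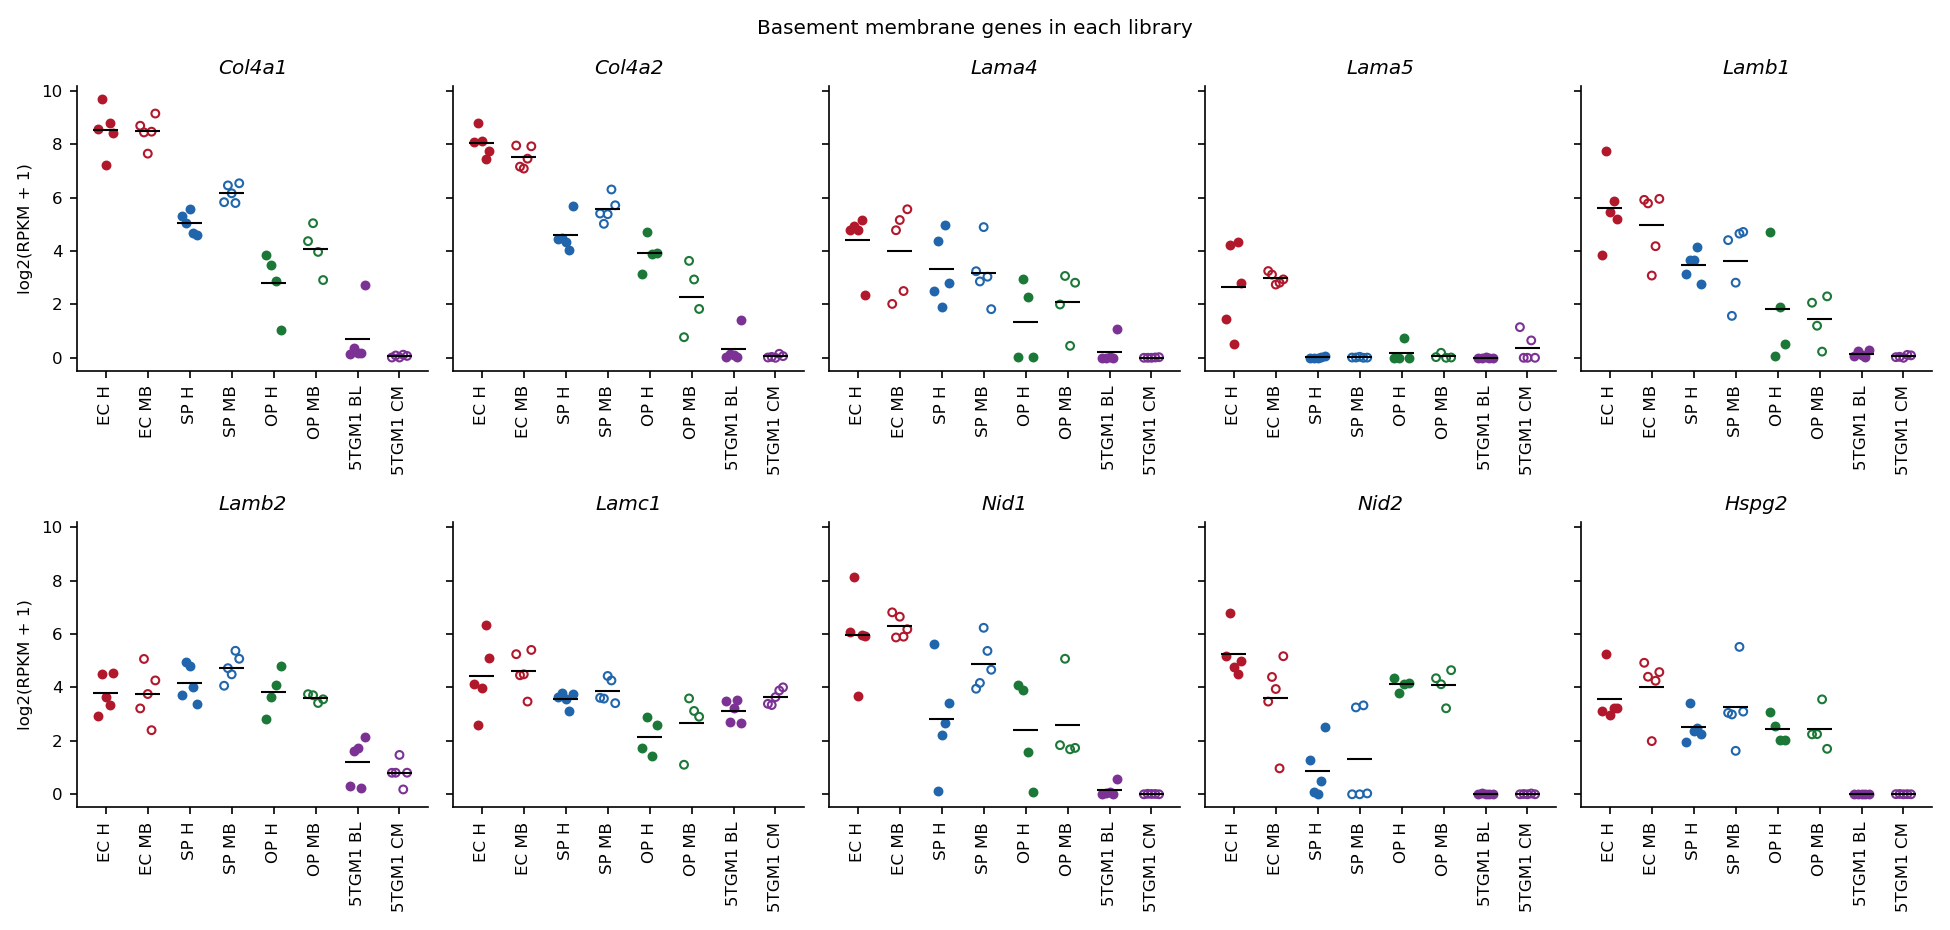
Level of each of the 10 genes in each of the 38 libraries, as log2(RPKM + 1), with 1 point per library and a line at the group mean. EC, SP and OP are endothelial cells, stromal progenitors and osteoprogenitors, H and MB (open points) healthy and myeloma-bearing, and BL and CM (open points) bone lining and central marrow. Col4a1 and Col4a2 are highest in every endothelial library, Lama5 is at 1.21 RPKM or less outside endothelial cells, Lamb2 has no called difference between niche cells, and Lamc1 is the one gene well above 0 in all 5TGM1 libraries.

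The first question was which niche cell carried which basement membrane RNA. In healthy mice, 6 of 10 members were higher in endothelial cells than in stromal progenitors (6.69% of 8457 genes tested were called higher) and 6 of 10 were higher than in osteoprogenitors (6.67% of 8258), and none was lower. Both collagen IV genes, Lama5, Lamb1 and Nid1 were called in both comparisons, Nid2 only against stromal progenitors and Lama4 only against osteoprogenitors. A call required an adjusted p under 0.1 and a difference over 1 on the log2(RPKM + 1) scale in limma. In myeloma-bearing mice, 3 of 10 were higher in endothelial cells than in stromal progenitors (7.05% of 8749) and 5 of 10 were higher than in osteoprogenitors (8.18% of 8667). The median difference over the 9 members other than Lama5 was 2.14 and 3.08 in healthy mice and 1.35 and 1.93 in myeloma-bearing mice, in the same order. Over all genes tested the medians were -0.21, -0.22, -0.11 and -0.09, and they moved to -0.68, -0.83, -0.25 and -0.37 when reads were fitted with voom. All endothelial libraries lay above all libraries of the other group for 4.67%, 5.86%, 4.98% and 7.1% of genes tested, in the same order. Lama5 entered these tests only through the endothelial libraries, where it is high, so a difference was built into its selection and its values are a description. Of the other 9 members, 5, 5, 2 and 4 were called. For some of these the lower group alone would not have met the filter, so selection bears on them too. They were Nid2 against healthy stromal progenitors and Lama4, Lamb1 and Nid1 against healthy osteoprogenitors. Lamb1 and Col4a2 against myeloma-bearing osteoprogenitors were the others.

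Collagen IV made up most of the summed RNA of the members in endothelial cells. Its share of the 10 genes' summed RPKM was 62.7% to 81.5% in endothelial libraries, 33.1% to 60.5% in stromal progenitors and 13.98% to 38.2% in osteoprogenitors. Col4a1, the alpha1 chain, was 379, 826, 146, 445 and 338 RPKM in healthy endothelial replicates C, L, M, N and O. In myeloma-bearing endothelial replicates D, E, G, I and J it was 411, 346, 199, 352 and 565 RPKM. Every endothelial library lay above every other library, and the mean of 427 ± 249 RPKM (SD, n = 5) in healthy mice ranked 252 of 13260 genes.

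In healthy stromal progenitors C, L, M, N and O, Col4a1 was 38.8, 32.1, 46.5, 24.5 and 22.9 RPKM. Healthy osteoprogenitors L, M, N and O had 13.5, 10.0, 6.27 and 1.06 RPKM. The order was endothelial, stromal, osteoprogenitor, and no pair of these healthy groups overlapped. Between the last pair, 3.24% of genes tested lay entirely lower in osteoprogenitors. Endothelial cells exceeded stromal progenitors by 3.50 ± 0.55 on the log2 scale (SE, adjusted p = 0.000529, limma) and osteoprogenitors by 5.73 ± 0.75 (adjusted p = 0.000262), or 12.9-fold and 55.3-fold by mean RPKM. The second call was lost in the voom fit (6.11, adjusted p = 0.386). The difference of osteoprogenitors from stromal progenitors was -2.23 ± 0.70 and did not pass (adjusted p = 0.138).

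Col4a2, the alpha2 chain, was 269, 446, 274, 175 and 214 RPKM in healthy endothelial replicates C, L, M, N and O. The myeloma-bearing endothelial values were 246, 142, 135, 174 and 241 RPKM for D, E, G, I and J. Healthy stromal progenitors had 21.0, 21.2, 19.1, 15.5 and 50.3 RPKM, and replicate O was the high one. Healthy osteoprogenitors had 7.69, 24.9, 13.9 and 14.1 RPKM, which overlapped stromal progenitors. Endothelial cells exceeded both by 3.44 ± 0.54 (adjusted p = 0.000553) and 4.13 ± 0.58 (adjusted p = 0.000466), calls kept in all 11 alternative fits of each comparison.

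In myeloma-bearing mice, the endothelial excess over stromal progenitors was 2.32 ± 0.42 for Col4a1 (adjusted p = 0.0015) and 1.95 ± 0.47 for Col4a2 (adjusted p = 0.0121). Over osteoprogenitors it was 4.41 ± 0.54 (adjusted p = 0.000112) and 5.22 ± 0.67 (adjusted p = 0.000164). All 4 were kept in every alternative fit. Between the other two cell types of these mice, Col4a2 was lower in osteoprogenitors than in stromal progenitors (-3.27 ± 0.77, adjusted p = 0.035), and this was the one member called (1.75% of 8793 genes were called lower, 1.6% higher). The values did not overlap, at 0.706, 11.4, 6.63 and 2.55 RPKM in osteoprogenitors against 41.3, 31.3, 40.5, 77.9 and 51.3 RPKM. Of all genes tested, 2.82% lay entirely lower in osteoprogenitors in this way. The call was lost in the voom fit (adjusted p = 0.142) and without replicates D, G, I or J (adjusted p = 0.155, 0.1, 0.113 and 0.195). For Col4a1 the same difference was -2.08 ± 0.61 and was not called (adjusted p = 0.101), but it was called with no low-value filter (adjusted p = 0.0775), with voom (0.0576) and with one spread shared by all 38 libraries (0.0295).

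**Figure D2:**
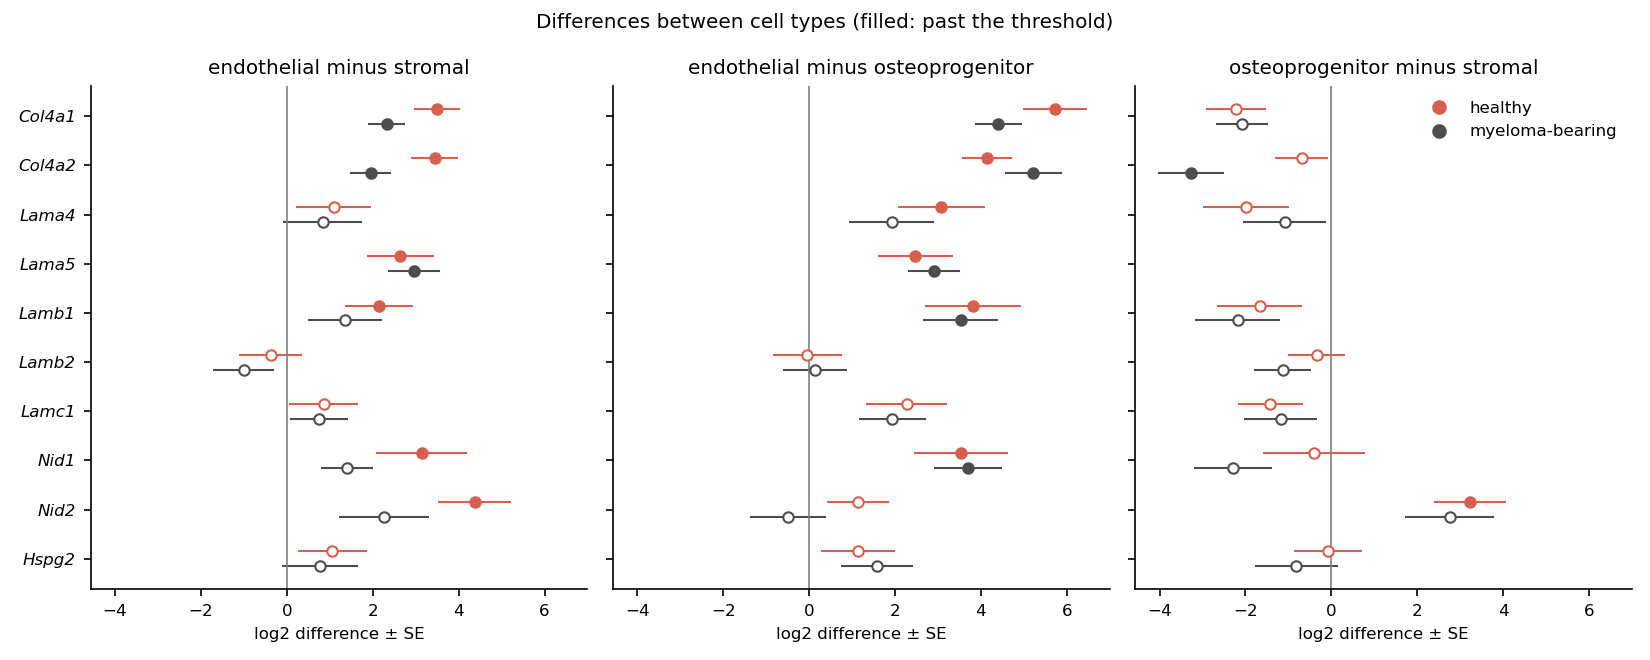
Difference between cell types for each gene on the log2(RPKM + 1) scale, with bars of 1 SE from limma, in healthy (red) and myeloma-bearing (grey) mice, filled where called. Col4a1 and Col4a2 sit well right of 0 in both endothelial panels, Lamb2 lies near or left of 0, and Nid2 is the one gene right of 0 in the osteoprogenitor panel in both conditions. Lama5 has no point in the right panel because it did not pass the filter.

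Lama5, the alpha5 chain, had its highest levels in endothelial cells, where its means of 8.93 RPKM in healthy and 6.90 RPKM in myeloma-bearing mice were below those of Lama4 (24.3 and 23.0 RPKM). Lama5 was 1.76, 17.5, 0.42, 19.0 and 6.01 RPKM in healthy endothelial replicates C, L, M, N and O. In myeloma-bearing endothelial cells it was 8.49, 7.66, 5.69, 6.02 and 6.65 RPKM, and the lowest healthy library, M, rested on 112 reads. In the 10 stromal libraries it rested on 0 to 13 reads. In the osteoprogenitor libraries it rested on 0 to 2 reads except in healthy replicate N (124 reads, 0.67 RPKM) and myeloma-bearing replicate G (29 reads), and the healthy endothelial and osteoprogenitor values overlapped through replicate N. The mean of myeloma-bearing stromal progenitors was under the floor of 3 reads per library, so endothelial cells of these mice were at least 489-fold higher. On the log2 scale the endothelial excess over stromal progenitors was 2.64 ± 0.79 in healthy and 2.96 ± 0.60 in myeloma-bearing mice, and over osteoprogenitors 2.47 ± 0.87 and 2.91 ± 0.60. These have no independent test, because the filter admitted Lama5 only through endothelial cells. Both healthy calls also rested on all of replicates C, L, N and O, since without any one of them Lama5 did not pass the filter. The one against osteoprogenitors was further lost with no low-value filter, with upper-quartile scaling and without replicate M.

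Lama4, the alpha4 chain of vessels and some mesenchymal cells, split endothelial libraries within each condition. It was 26.9, 29.6, 26.8, 34.3 and 4.06 RPKM in healthy replicates C, L, M, N and O. In myeloma-bearing replicates D, E, G, I and J it was 3.05, 26.4, 34.7, 4.66 and 46.2 RPKM. Replicates O, D and I were low and the other 7 were 26.4 to 46.2 RPKM, while stromal progenitors ranged from 2.53 to 30.6 RPKM over both conditions. In healthy osteoprogenitors Lama4 was 0.03, 6.78, 3.88 and 0.02 RPKM, below endothelial cells by 3.08 ± 1.01 (adjusted p = 0.0666). That call was lost with voom (adjusted p = 0.128) and when replicate C, L, M, N or O was left out (0.104 to 0.281). In myeloma-bearing mice the same difference was 1.92 ± 0.99 (adjusted p = 0.259).

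Lama2, the alpha2 chain best known from muscle and nerve, belongs to a wider list of other laminin and collagen IV chains rather than to the 10 genes. It was at most 0.0467 RPKM in any endothelial library, 0.12 to 21.1 RPKM in stromal progenitors and 3.02 to 49.8 RPKM in osteoprogenitors. The difference of endothelial cells from stromal progenitors was -2.60 ± 0.74 in healthy and -2.35 ± 0.72 in myeloma-bearing mice, and that from osteoprogenitors was -2.83 ± 0.59 and -3.49 ± 0.75. These too are descriptions, because Lama2 passed the filter only through the stromal or osteoprogenitor libraries. Lama3, an alpha chain known from epithelia and from the same wider list, was 0.02 to 8.50 RPKM in healthy and 0.00 to 8.59 RPKM in myeloma-bearing endothelial cells, at most 0.39 RPKM in stromal progenitors and at most 0.00789 RPKM in osteoprogenitors. It did not pass the filter in comparisons between cell types. Of the summed mean RPKM of Lama2, Lama4 and Lama5, which leaves out Lama3, Lama4 accounted for 73.1% in healthy endothelial cells and 61.4% in healthy stromal progenitors, and Lama2 for 71.7% in healthy osteoprogenitors. Lama5 accounted for 26.8% in healthy endothelial cells and for 1.70% or less in stromal progenitors and osteoprogenitors of either condition.

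**Figure D3:**
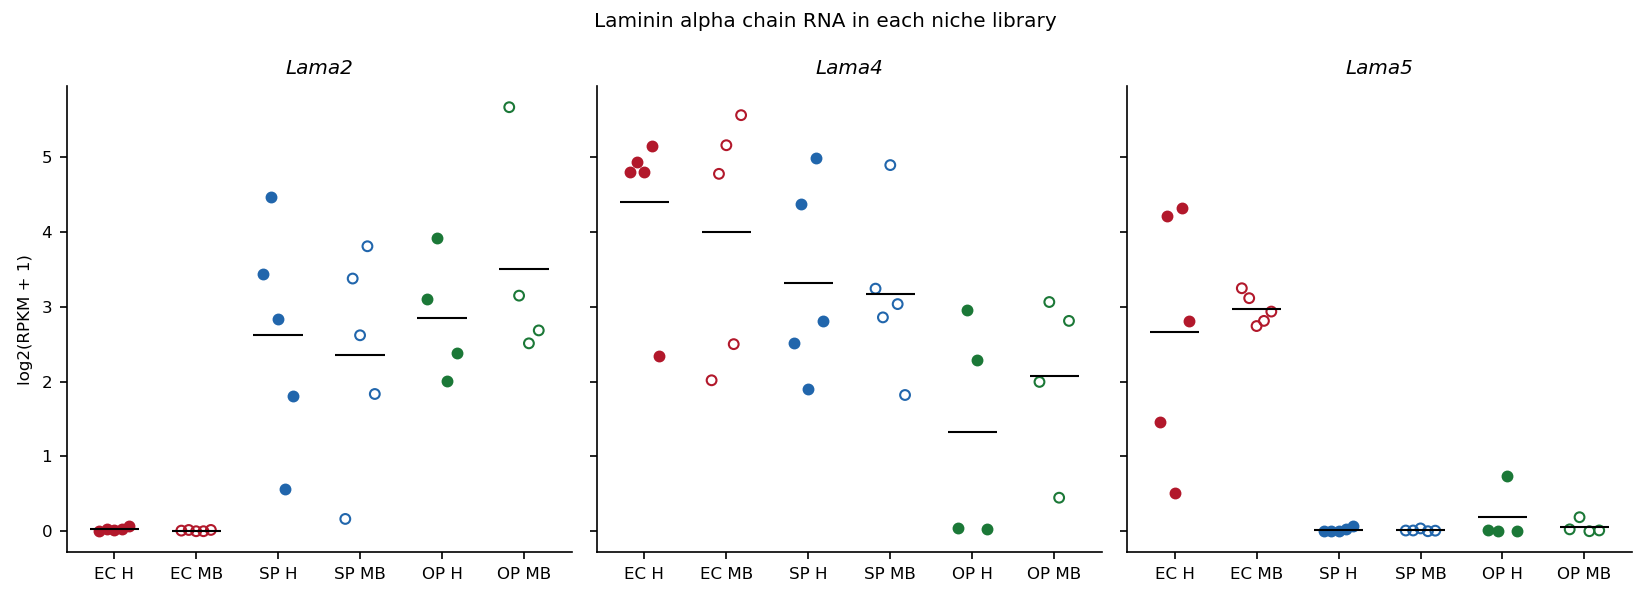
Levels of 3 laminin alpha chain genes, Lama2, Lama4 and Lama5 (Lama3 is not drawn), in each niche library as log2(RPKM + 1), with 1 point per library, a line at the group mean and open points for myeloma-bearing mice. Lama2 is at or near 0 in endothelial cells (EC) and above it in stromal progenitors (SP) and osteoprogenitors (OP), Lama5 reaches its highest levels in endothelial cells and stays at 0.67 RPKM or less in the other two, and Lama4 is split within the endothelial groups.

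The beta chains differed in where they were found. Lamb1, the common beta chain, was 13.4, 214, 43.0, 56.9 and 35.8 RPKM in healthy endothelial replicates C, L, M, N and O. It was 7.75, 11.8, 11.7, 16.8 and 5.86 RPKM in healthy stromal progenitors, and stromal replicate N (16.8 RPKM) lay above endothelial replicate C (13.4 RPKM). Healthy osteoprogenitors had 25.4, 0.05, 2.76 and 0.44 RPKM, with replicate L far above the rest. The endothelial excess was 2.14 ± 0.79 over stromal progenitors (adjusted p = 0.0958) and 3.81 ± 1.11 over osteoprogenitors (adjusted p = 0.0405). The first was lost in 8 of 11 alternatives, including without replicate L (1.66, adjusted p = 0.196), M, N or O, and the second in 4, without M, N or O or with voom (adjusted p = 0.189). In myeloma-bearing mice Lamb1 was 7.45 to 60.8 RPKM in endothelial cells and 0.17 to 3.92 RPKM in osteoprogenitors, with no overlap (3.53 ± 0.87, adjusted p = 0.0147, lost with voom), and the excess over stromal progenitors was 1.35 ± 0.86 (adjusted p = 0.393).

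Lamb2, the alternative beta chain of mature vessel, muscle and kidney basement membranes, showed no called difference in any comparison. It was 4.28 to 32.5 RPKM in endothelial cells, 9.51 to 40.4 RPKM in stromal progenitors and 6.06 to 26.6 RPKM in osteoprogenitors. The differences between healthy groups were -0.38 ± 0.73 for endothelial against stromal cells and -0.04 ± 0.81 for endothelial cells against osteoprogenitors. In myeloma-bearing mice stromal progenitors had the highest mean, 27.1 RPKM against 15.2 and 11.2 RPKM. The differences from them were -1.005 ± 0.71 for endothelial cells (adjusted p = 0.453) and -1.14 ± 0.67 for osteoprogenitors (adjusted p = 0.555), whose 4 values of 9.69 to 12.4 RPKM lay below all 5 stromal ones, 15.7 to 40.4 RPKM. The same held for 2.82% of genes tested in that comparison. The ratio of Lamb2 to Lamb1 was below 1 in all 5 healthy endothelial libraries and above 1 in 4 of 5 healthy stromal libraries. The mean log2 ratio, taken on RPKM + 1, was -1.83 ± 1.08 (SD, n = 5) against 0.69 ± 0.55 (n = 5), with no overlap. Its exact two-sided permutation p of 0.00794 is the smallest that 5 against 5 libraries can give, and the value adjusted over the 18 ratio tests was 0.143, so it did not pass. The other ratio comparisons between cell types had adjusted p from 0.286 to 0.95 by the same exact permutation test.

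Lamc1, the gamma chain shared by most laminins, was present in every group. It was 5.05 to 80.8 RPKM in endothelial cells, 7.75 to 20.6 RPKM in stromal progenitors and 1.15 to 11.03 RPKM in osteoprogenitors. Its endothelial excess did not pass over stromal progenitors (0.86 ± 0.80, adjusted p = 0.58) or osteoprogenitors (2.27 ± 0.94, adjusted p = 0.154) in healthy mice, nor in myeloma-bearing mice (0.75 ± 0.68, adjusted p = 0.574, and 1.93 ± 0.78, adjusted p = 0.135). Healthy endothelial replicate L, high for many other members, had the lowest endothelial Lamc1 at 5.05 RPKM.

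The nidogens had different patterns across the niche cells. Nid1 (nidogen-1) was 66.4, 279, 11.7, 61.5 and 59.2 RPKM in healthy endothelial replicates C, L, M, N and O. In healthy stromal progenitors it ranged from 0.08 RPKM (L) to 48.9 RPKM (C), with 3.67, 5.36 and 9.68 RPKM in M, N and O. In healthy osteoprogenitors it was 16.2, 14.1, 1.98 and 0.05 RPKM. Endothelial cells exceeded stromal progenitors by 3.14 ± 1.05 (adjusted p = 0.0658) and osteoprogenitors by 3.53 ± 1.09 (adjusted p = 0.0531), with overlap in both. Both were lost without replicate L (1.92, adjusted p = 0.249, and 3.55, adjusted p = 0.101), without N or without O, with voom (adjusted p = 0.238 and 0.328) and with no low-value filter (0.147 and 0.107). The stromal one was also lost with a pseudocount of 0.1 (adjusted p = 0.104). In myeloma-bearing mice Nid1 was 57.5 to 111 RPKM in endothelial cells and 2.58, 32.7, 2.21 and 2.33 RPKM in osteoprogenitors D, G, I and J. These did not overlap, and the excess of 3.70 ± 0.79 (adjusted p = 0.00596) was kept in all 11 alternatives. The excess over stromal progenitors of these mice, whose values of 14.5 to 74.2 RPKM overlapped endothelial cells, was 1.41 ± 0.60 and was not called (adjusted p = 0.164), and of the alternatives it was called with voom alone (adjusted p = 0.0513).

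Nid2 (nidogen-2) was 35.2, 110, 26.2, 21.5 and 31.1 RPKM in healthy endothelial cells. In healthy osteoprogenitors it was steady, at 19.5, 12.98, 16.6 and 16.8 RPKM. In healthy stromal progenitors it was 1.42, 0.05, 0.01, 0.41 and 4.78 RPKM. Only replicates C and O exceeded 1 RPKM there, so Nid2 met the filter only with the endothelial or osteoprogenitor libraries, where it is high. That selection bears on both differences from healthy stromal progenitors. The stromal values lay below all endothelial and osteoprogenitor values, by 4.37 ± 0.85 against endothelial cells (adjusted p = 0.00275, kept in all 11 alternatives) and by 3.24 ± 0.84 against osteoprogenitors (adjusted p = 0.0554). The latter was the one member called between osteoprogenitors and stromal progenitors of healthy mice, where 1.69% of 8707 genes were called higher and 1.9% lower. In that comparison 2.94% of genes tested lay entirely higher in osteoprogenitors. It was lost with a pseudocount of 0.1 (adjusted p = 0.129) and without replicates L, M or N (0.221, 0.178 and 0.238). The endothelial and osteoprogenitor groups differed by 1.13 ± 0.72 (adjusted p = 0.396). In myeloma-bearing mice the stromal values were 0.00, 8.53, 0.00, 9.05 and 0.02 RPKM, the osteoprogenitor values 19.3, 16.4, 8.31 and 24.1 RPKM and the endothelial values 10.1, 20.0, 14.4, 0.96 and 35.0 RPKM. Endothelial replicate I was the low library. The excess of endothelial cells over stromal progenitors was 2.27 ± 1.05 and was not called (adjusted p = 0.208), but it was called without replicate I (3.42, adjusted p = 0.0455), with voom (adjusted p = 0.0786) and with one spread shared by all 38 libraries (adjusted p = 0.0164). The other 2 differences between cell types of these mice did not pass (adjusted p = 0.239 for osteoprogenitors against stromal progenitors and 0.809 for endothelial cells against osteoprogenitors).

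Hspg2 (perlecan) was 7.71, 37.1, 6.89, 8.34 and 8.49 RPKM in healthy endothelial cells, 2.93 to 9.81 RPKM in healthy stromal progenitors and 3.05 to 7.54 RPKM in healthy osteoprogenitors. Replicate L lay apart from the other endothelial libraries. The endothelial excess was 1.06 ± 0.80 and 1.14 ± 0.86, and neither passed (adjusted p = 0.474 and 0.486). In myeloma-bearing mice it was 0.77 ± 0.89 (adjusted p = 0.687) and 1.59 ± 0.84 (adjusted p = 0.274), with endothelial values of 2.98 to 29.3 RPKM.

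The second question was what myeloma changed. No member was called between myeloma-bearing and healthy mice in endothelial cells, stromal progenitors or osteoprogenitors, where limma called 0%, 0% and 0.0115% of the 7880, 8747 and 8664 genes tested. At an unadjusted p under 0.05 there were 414, 437 and 422 genes. In stromal progenitors 2 of those were members, Col4a1 and Nid1, and there were none in the other two cell types. When all 38 libraries shared an estimate of spread, 258, 31 and 16 genes were called, and again no member.

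In stromal progenitors no member passed, and 8 of the 9 tested overlapped healthy values. The summed RPKM of the 10 genes was 121 to 149 in the healthy libraries and 174 to 316 in the myeloma-bearing ones, which did not overlap. Collagen IV alone was 33.1% to 58.3% and 41.8% to 60.5% of these sums. The sums were not tested, and they are not a measure of each member. Of the 9 members that passed the filter, 8 had a positive difference and the median was 0.57, against -0.0006 over all genes tested, and these are descriptions of genes that share libraries. With voom 6 of 9 were positive (median 0.71), and without replicate I 6 of 8 (median 0.30). Col4a1 was 55.7, 86.7, 70.4, 54.5 and 91.7 RPKM in myeloma-bearing replicates D, E, G, I and J, all above the healthy maximum of 46.5 RPKM. This was the one member whose groups did not overlap, and 0.354% of genes tested lay entirely higher in myeloma-bearing mice in that way. The difference of 1.12 ± 0.48 did not pass (adjusted p = 0.956, and 0.619 or more in all 15 alternatives). Nid1 was 14.5, 17.0, 74.2, 40.3 and 24.3 RPKM, a difference of 2.06 ± 0.93 (adjusted p = 0.956), and the healthy values of 0.08 to 48.9 RPKM overlapped it. Col4a2 differed by 0.96 ± 0.56 (adjusted p = 0.956). Summed mural markers were 21.5 to 353 RPKM in healthy and 70.01 to 735 RPKM in myeloma-bearing stromal progenitors. Adipoq, the only listed adipocyte gene with values, was 0.113 to 1.09 RPKM and 0.781 to 519 RPKM in the same groups. It also reached 501 RPKM in healthy endothelial cells and 700 RPKM in healthy osteoprogenitors, so it does not mark adipocytes alone here. The part of mural or adipocyte RNA in the differences was not tested, while endothelial markers were low in both stromal groups, at 1.15 to 16.0 RPKM and 0.948 to 12.1 RPKM against 3180 RPKM or more in endothelial cells. Fewer cells of a kind in a sorted pool and less RNA per cell cannot be told apart in such data.

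**Figure D4:**
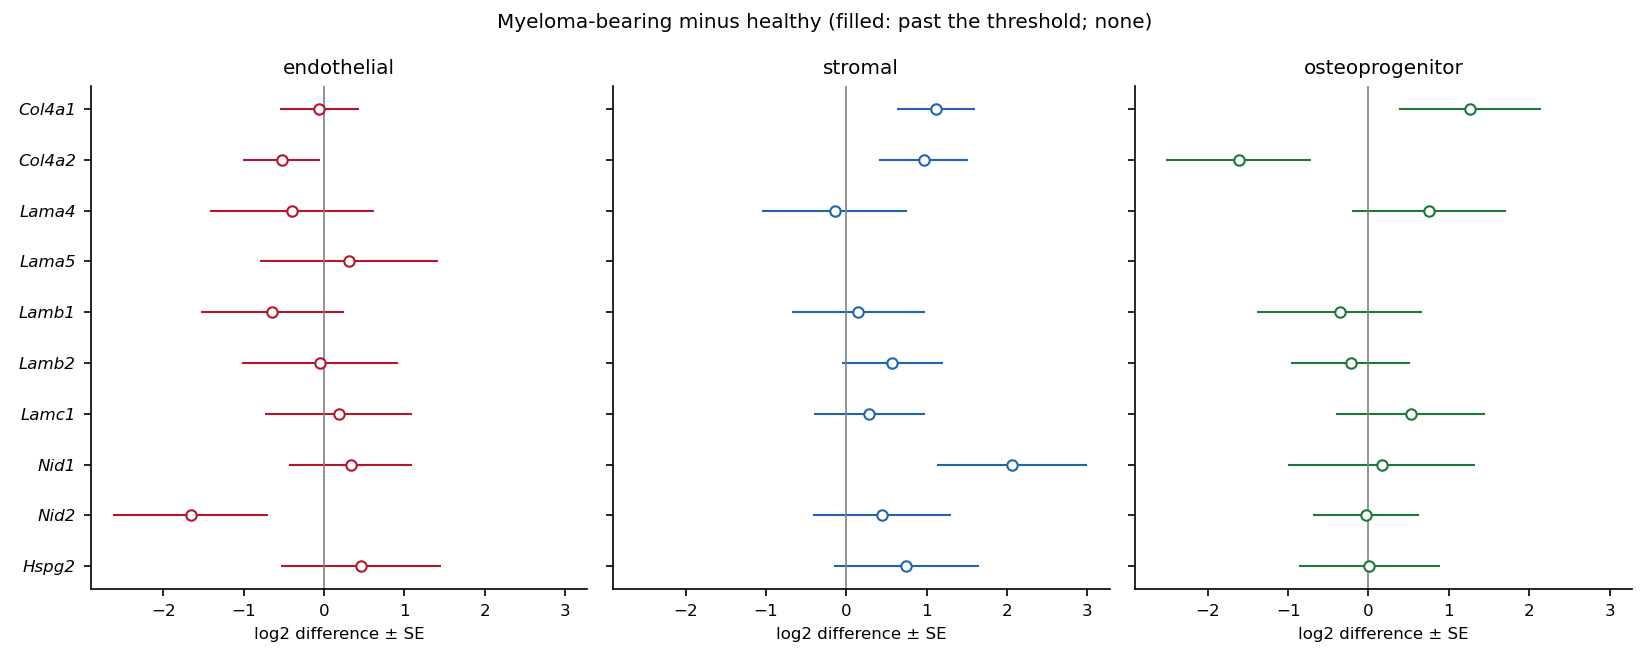
Myeloma-bearing minus healthy difference for each gene and niche cell type on the log2(RPKM + 1) scale, with bars of 1 SE from limma. No point is filled because none was called, and stromal Col4a1 and Nid1 lie farthest to the right of 0 relative to their SE. Lama5 has no stromal or osteoprogenitor point because it did not pass the filter.

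In endothelial cells no difference between conditions passed. Col4a1 differed by -0.06 ± 0.49 and Col4a2 by -0.53 ± 0.48, and 4 of 10 members were positive, but 6 of 10 with upper-quartile scaling or voom. The largest was Nid2 at -1.66 ± 0.97 (adjusted p = 0.93). No endothelial member had groups without overlap, where 0.914% of genes tested had. The same held for the 9 tested osteoprogenitor members, where 2.65% of genes had no overlap.

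In osteoprogenitors the differences of the collagen IV chains had opposite signs. Col4a1 was 19.6, 31.9, 14.6 and 6.52 RPKM in myeloma-bearing replicates D, G, I and J, against 1.06 to 13.5 RPKM in healthy mice, a difference of 1.26 ± 0.88. Col4a2 was 0.706 to 11.4 RPKM against 7.69 to 24.9 RPKM, a difference of -1.62 ± 0.91, and neither passed (adjusted p = 0.981 for both). The log2 ratio of Col4a2 to Col4a1 was 1.10 ± 1.48 (SD, n = 4) in healthy and -1.78 ± 1.22 (n = 4) in myeloma-bearing osteoprogenitors, and the groups did not overlap. Its exact permutation p was 0.0286, the smallest that 4 against 4 libraries can give, and 0.257 after adjustment over the 18 ratio tests. In stromal progenitors the same ratio was -0.44 ± 0.90 and -0.59 ± 0.71 (n = 5 each, exact permutation p = 0.754), and in endothelial cells -0.50 ± 0.84 and -0.96 ± 0.31 (n = 5 each, exact permutation p = 0.294). The difference of responses between stromal progenitors and osteoprogenitors was 2.58 ± 0.93 for Col4a2 and did not pass (adjusted p = 1), and the interaction fits called 0% of genes in each of the 3 pairs of cell types.

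**Figure D5:**
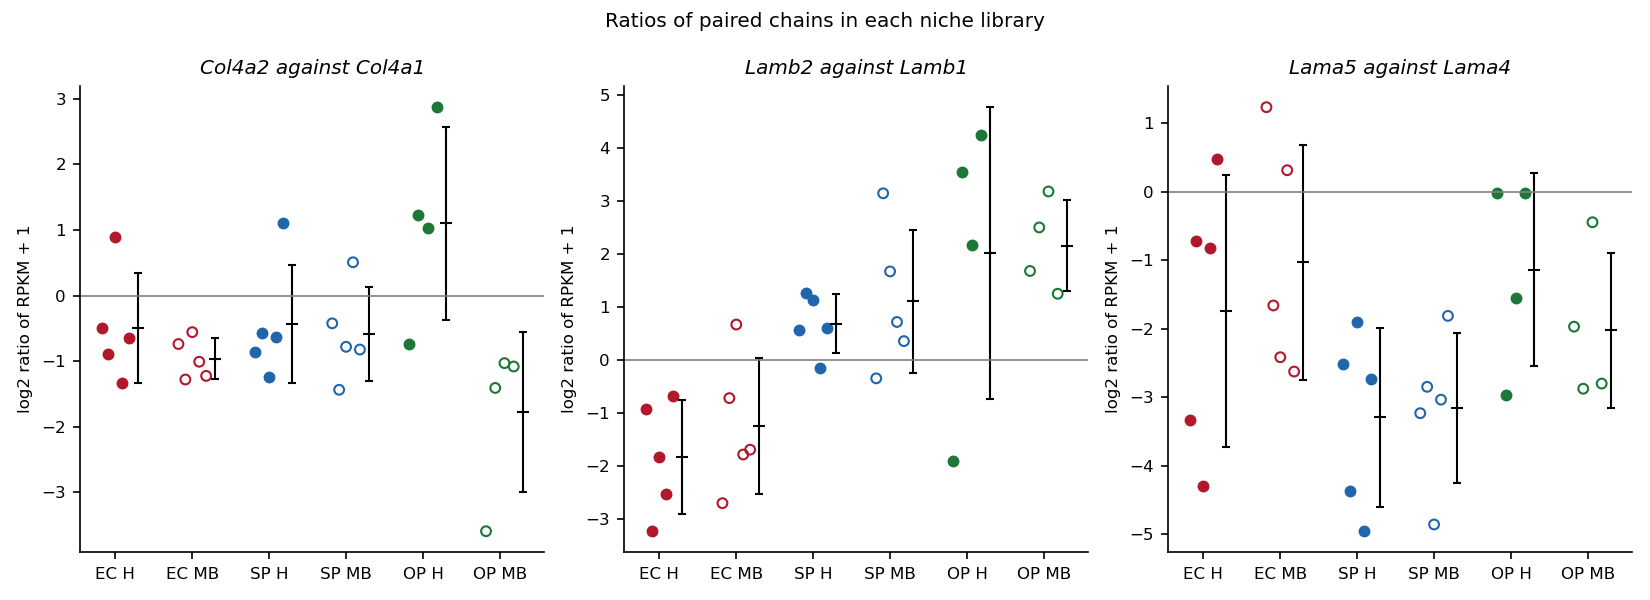
Log2 ratio of Col4a2 to Col4a1, of Lamb2 to Lamb1 and of Lama5 to Lama4 in each niche library, computed on RPKM + 1, with 1 point per library, the mean and SD beside the points and open points for myeloma-bearing mice. The osteoprogenitor (OP) points for collagen IV run from -0.74 to 2.87 in healthy and from -3.60 to -1.03 in myeloma-bearing mice. The endothelial (EC) points for Lamb2 lie below 0 in all healthy libraries.

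Within a cell type no correlation between the collagen IV genes passed. Over 10 endothelial libraries Pearson's r of log2(RPKM + 1) was 0.46 (permutation p = 0.177, adjusted 0.344 over 3 cell types) and Spearman's rho 0.36 (permutation p = 0.316, adjusted 0.316). Over 10 stromal libraries r was 0.42 (permutation p = 0.229, adjusted 0.344) and rho 0.41 (permutation p = 0.247, adjusted 0.316). Over 8 osteoprogenitor libraries r was -0.29 (exact permutation p = 0.48, adjusted 0.48) and rho -0.48 (exact permutation p = 0.243, adjusted 0.316). Leaving out the 2 libraries farthest from the median of Col4a1 gave r of 0.64, 0.56 and -0.43. Within healthy and myeloma-bearing libraries r was 0.38 and 0.83 for endothelial, -0.45 and -0.49 for stromal and -0.14 and 0.39 for osteoprogenitor cells, so the positive stromal value was not seen within either condition.

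Of the 10 members, Lamc1 had the highest mean level in myeloma cells of either site. It was 10.1, 5.51, 8.31, 10.5 and 5.29 RPKM in bone-lining replicates D, E, G, I and J and 9.46, 9.14, 11.5, 13.8 and 15.04 RPKM in the central marrow. Laminin genes, led by Lamc1, were 98.5% or more of the members' summed RPKM in the central marrow, and as little as 56.3% in bone-lining replicate J. The difference of the bone lining from the central marrow was -0.54 ± 0.35 (adjusted p = 0.928). For Lamb2, at 0.174 to 3.38 and 0.134 to 1.78 RPKM, it was 0.39 ± 0.47 (adjusted p = 0.98). These were the 2 members that passed the filter, and 0.203% of 8857 genes were called. Bone-lining replicate J held 5.62 RPKM of Col4a1, 1.65 of Col4a2 and 1.09 of Lama4, against at most 0.30, 0.0993 and 0.0146 RPKM in the other 4 libraries. Its summed endothelial and mural markers were 21.2 and 5.29 RPKM, against 14.1 to 36.2 and 0.644 to 4.85 RPKM in the other 4. The endothelial genes Cdh5, Kdr, Tek, Tie1, Emcn, Erg, Cldn5, Esam, Robo4 and Selp were under 1 RPKM in every bone-lining library. Pecam1, for which the paper lists some expression in 5TGM1 cells, was 5.85 to 16.8 RPKM. The endothelial sum therefore cannot show whether replicate J held endothelial RNA. Replicate J was also high for Sparc (49.8 against at most 2.92 RPKM), Smoc2 (2.46 against at most 0.234 RPKM) and Thbs1 (1.11 against at most 0.147 RPKM), matrix genes named here after their values were seen. Other genes of the same list, such as Ecm1 (3.47 RPKM) and Smoc1 (1.67 RPKM), lay within the range of the other 4. The part of RNA from other cells was not tested. In the central marrow, Lama5 had 296 reads in replicate D (1.21 RPKM) and 129 in replicate I (0.57 RPKM) and 0 in the other 3, each of which allows up to 3 reads.

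Across all 38 libraries, Col4a1, Lamb1 and Nid1 each had another member among the 3 genes most like them. By Pearson's r of log2(RPKM + 1) over 12682 other genes, Nid1 was most like Col4a1 (0.91), then Col18a1 (0.89) and Col4a2 (0.88). Col4a1 was most like Sptbn1 (0.95), Col4a2 (0.95) and Epas1 (0.94), and Col4a2 most like Ly6c1 (0.96), Ltbp4 (0.95) and Ramp2 (0.95). Lama5 was most like Clca1 (0.94), Stab2 (0.93) and Aplnr (0.93), and Lamb1 like Rac1 (0.90), Col4a1 (0.88) and Ramp2 (0.88). Lama4 was most like Cd34 (0.87), Aqp1 (0.85) and Thbd (0.85). The genes most like Nid2 were Rapgef4 (0.87), Spata13 (0.83) and Spns2 (0.83), and those most like Hspg2 were Klf2 (0.91), Hspa1a (0.90) and Tmsb10 (0.90). Lamb2 was most like Smim14 (0.93), S100a6 (0.91) and Prkcdbp (0.90). Lamc1 had no gene above 0.72 (Ube2l6, then Ly6e and Hdac7 at 0.72 and 0.71), and Lamb2 ranked 3922 for it. These values describe libraries of 4 cell types and carry no test. Within the 10 endothelial libraries, r with Col4a1 was 0.76 for Nid1, 0.74 for Hspg2, 0.73 for Lama5 and 0.63 for Lamb1, but 0.03 for Lama4 and -0.05 for Lamc1.

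Other basement membrane components were called in both directions between the same cells. Among 18 in the table, 13 were tested between healthy endothelial cells and stromal progenitors, of which 3 were higher and 6 lower in endothelial cells (6.69% and 10.6% of all genes). As with Lama5, 4 of these 9 genes (Tinagl1, Smoc1, Smoc2 and Fbln1) were at 1 RPKM or less throughout the lower group and passed the filter only through the higher one, and without them 2 of 9 were higher and 3 lower. Tinagl1, a laminin-binding matrix protein, was 95.5 to 287 RPKM in healthy endothelial cells and at most 0.404 RPKM in healthy stromal progenitors. Smoc2 was at most 0.245 RPKM in healthy endothelial cells and 171 to 420 RPKM in healthy stromal progenitors. Among the rest, Agrn (agrin) was higher (4.04 ± 0.92) and Ecm1, a secreted matrix protein, lower (-6.82 ± 0.80). Against healthy osteoprogenitors 3 of 14 were higher and 7 lower (6.67% and 9.81% of all genes), or 2 and 3 of 9 without those that one group alone had admitted, and Pxdn, the peroxidase that crosslinks collagen IV, was higher by 4.43 ± 0.82. In myeloma-bearing mice 3 of 14 were higher and 7 lower against stromal progenitors (7.05% and 9.09%), or 3 and 3 of 10. Against osteoprogenitors 5 of 13 were higher and 5 lower (8.18% and 9.51%), or 5 and 2 of 10.

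Genes for collagen processing were mostly lower in endothelial cells where called. Of 13 tested, 5 were lower and none higher in healthy endothelial cells than in stromal progenitors (10.6% and 6.69% of all genes). Against osteoprogenitors 6 were lower and 1 higher (Plod1, 2.36 ± 0.77), against 9.81% and 6.67% of all genes. Plod2, a lysyl hydroxylase that also serves fibrillar collagen, was at most 14.3 RPKM in healthy endothelial cells and 83.8 RPKM or more in healthy stromal progenitors (-5.73 ± 0.86, adjusted p = 0.000404, and -5.94 ± 0.95 against osteoprogenitors). P4ha2, a prolyl hydroxylase subunit, was lower than in stromal progenitors (-4.93 ± 0.96), and Lepre1, another prolyl hydroxylase, lower than in osteoprogenitors (-4.13 ± 1.18). In myeloma-bearing mice 3 of 13 and 6 of 12 were lower (9.09% and 9.51% of all genes) and none higher.

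Among receptors for basement membrane, Itga1 was higher and the syndecans Sdc2 and Sdc4 lower in healthy endothelial cells. Of 12 tested against healthy stromal progenitors, 3 were higher and 3 lower (6.69% and 10.6% of all genes), or 1 and 2 of 9 without Bcam, Itga3 and Sdc1, which one group alone had admitted. Itga1, the integrin alpha1 chain that binds collagen IV, was higher by 4.93 ± 0.93 (adjusted p = 0.0023). Sdc2 (-6.83 ± 0.87) and Sdc4 (-6.64 ± 0.90) were lower. Against healthy osteoprogenitors 4 of 11 were higher and 3 lower (6.67% and 9.81%), or 2 and 2 of 8, with Itga1 higher (3.89 ± 0.83) and Sdc4 (-6.58 ± 0.97) and Sdc2 (-5.49 ± 1.02) lower. In myeloma-bearing mice Itga1 was not called against stromal progenitors (0.38 ± 0.97, adjusted p = 0.871) or osteoprogenitors (2.29 ± 1.12, adjusted p = 0.232). There 3 of 11 and 1 of 11 receptors were higher (7.05% and 8.18% of all genes), all admitted through endothelial cells alone, and 2 were lower in each comparison (9.09% and 9.51%). Bcam, a receptor for laminin alpha5, was one of these, with a difference of 3.37 ± 0.72 and 3.23 ± 0.79 in healthy and 4.06 ± 0.77 and 3.71 ± 0.79 in myeloma-bearing mice, given as a description. Between osteoprogenitors and stromal progenitors few genes of these lists were called, with Fbln2 (-3.97 ± 0.55 in healthy, -4.36 ± 0.91 in myeloma-bearing mice) and Ecm1 (-2.35 ± 0.43 and -3.75 ± 0.50) lower in both conditions. The other calls there were Sdc2 lower in healthy mice (-1.34 ± 0.34) and Sparc (1.60 ± 0.29) and Lepre1 (2.87 ± 0.76) higher in myeloma-bearing mice. None of the list genes was called between myeloma-bearing and healthy mice in any cell type, or between the 2 sites of 5TGM1 cells.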

How the data were processed

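RNA from pools of 100 sorted cells was amplified by SmartSeq2, which primes on poly(A) tails and keeps no strand, and sequenced as 50-base single reads. The authors aligned reads with STAR 2.4.0 to GRCm38 (mm10), counted them with featureCounts (Subread 1.4.5-p1), kept genes detected in several samples and deposited RPKM values made with edgeR. From these, log2(RPKM + 1) was fitted with limma 3.58.1 (trend, R 4.3.3) using only the libraries compared. A gene was tested if 4 or more of those libraries exceeded 1 RPKM. P-values were adjusted over all genes tested by Benjamini-Hochberg, and fold changes on this scale understate those of low genes. Per-gene steps in the values gave whole reads for all 13260 genes (largest departure 1.9e-08 reads), which served a voom fit. Every column was assigned to a sample by its label. The series describes replicates as different mice, but labels do not tie a letter to a mouse. Chain ratios were tested by exact permutation. Members were tested in each comparison where they passed the filter, with at most 2 called genes named per list, direction and comparison unless 5 or fewer genes were called. Members and lists were chosen with earlier results of these data known. The fits were checked on simulated data, where they recovered nearly all changes at low spread but few at high spread, and some calls were false at either spread. Between conditions, the main fit at high spread recovered 19.5% (endothelial), 13.5% (stromal) and 8% (osteoprogenitor) of simulated 8-fold changes. Of its calls there, 7.14%, 15.6% and 27.3% were false.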

Additional observations from a re-analysis of the deposited data

Results flagged for a closer look

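Of 64 combinations of a member and a group, 8 had a library apart from the rest, in 6 distinct libraries, by Dixon's ratio of gap to range, read against its 95% critical value for 4 or 5 libraries. About 1 in 20 groups is marked in this way by chance. The bone-lining 5TGM1 replicate J was high for Col4a1 (ratio 0.909, 5.62 RPKM against 0.105 to 0.30), Col4a2 (ratio 0.932) and Lama4 (ratio 0.98). Healthy stromal replicate O was high for Col4a2 (ratio 0.738, 50.3 RPKM against 15.5 to 21.2). Healthy endothelial replicate O was low for Lama4 (ratio 0.876, 4.06 RPKM against 26.8 to 34.3). Myeloma-bearing osteoprogenitor replicate G was high for Nid1 (ratio 0.954, 32.7 RPKM against 2.21 to 2.58). For Hspg2, healthy endothelial replicate L was high (ratio 0.883, 37.1 RPKM against 6.89 to 8.49) and myeloma-bearing endothelial replicate G was low (ratio 0.771, 2.98 RPKM against 18.05 to 29.3).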

How the results depend on the processing

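P-values measure only the spread between libraries of 100-cell pools. No difference past the threshold changed sign under any alternative run. Each member's difference was refitted under each alternative where the member passed the filter, and of these refits 1423 kept its side of the threshold, 45 lost a call and 13 gained one. Alternatives in which a member failed the filter are not in these numbers. Among them are the healthy endothelial comparisons of Lama5 without replicate C, L, N or O. Chain ratios and collagen IV correlations kept theirs. Below, comparisons are named by cell types, and the cause of each change was not tested. With one spread shared by all 38 libraries, called genes went from 0 to 258 (myeloma-bearing against healthy, endothelial), 0 to 31 (stromal) and 1 to 16 (osteoprogenitor). They went from 1465 to 2376 (healthy endothelial against stromal), 1361 to 2232 (healthy endothelial against osteoprogenitor) and 295 to 543 (myeloma-bearing osteoprogenitor against stromal), and from 0 to 11, 25 and 16 for the interactions of endothelial with stromal, endothelial with osteoprogenitor and stromal with osteoprogenitor. Members called went from 1 to 2 (healthy osteoprogenitor against stromal), 5 to 8 (myeloma-bearing endothelial against osteoprogenitor) and 1 to 3 (myeloma-bearing osteoprogenitor against stromal). Without the low-value filter, called genes were 2 (endothelial) and 0 (osteoprogenitor) between conditions, 1 between 5TGM1 sites (18 with it) and 1 and 4 for the first 2 interactions, and 2 members were called between myeloma-bearing osteoprogenitors and stromal progenitors. With voom, called genes were 4 (endothelial) and 0 (osteoprogenitor) between conditions, 8 between 5TGM1 sites and 4 for the interaction of endothelial with osteoprogenitor, and members called were 2 of 10 (healthy endothelial against osteoprogenitor, 6 otherwise) and 5 of 10 (myeloma-bearing endothelial against stromal, 3 otherwise). Under voom the split of genes higher and lower was 335 and 888 (551 and 810 otherwise) for healthy endothelial against osteoprogenitor, 145 and 103 (147 and 165) for healthy osteoprogenitor against stromal and 155 and 96 (141 and 154) for the latter in myeloma-bearing mice. A pseudocount of 0.1 left 0 members between healthy osteoprogenitors and stromal progenitors, and gave 2 and 1 genes for the interactions with osteoprogenitors.

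Leaving out each replicate letter in turn gave 483 to 1351 genes and 2 to 4 members for healthy endothelial against osteoprogenitor, 3 to 5 members against stromal, and 113 to 343 genes and 0 to 1 members for healthy osteoprogenitor against stromal. In myeloma-bearing mice it gave 755 to 1454 genes for endothelial against osteoprogenitor and 111 to 210 genes and 0 to 1 members for osteoprogenitor against stromal. Between conditions it gave 0 to 1 genes in stromal progenitors and in osteoprogenitors, for the interactions 0 to 2 and 0 to 1, and between 5TGM1 sites 3 to 16. Replicate letters were not taken to pair libraries, since the 31 same-letter correlations of deviations ran from -0.0488 to 0.0994, although 13 of 31 were the best for their library, where equal chances give 6.6, among them all 4 between myeloma-bearing endothelial cells and osteoprogenitors. With letter as a replicate block, called genes were 1414, 1179 and 275 for the healthy comparisons (endothelial against stromal, endothelial against osteoprogenitor, osteoprogenitor against stromal), 1316, 1380 and 206 for the myeloma-bearing ones and 12 between 5TGM1 sites, with 5, 4, 0, 3, 5, 1 and 0 members. The healthy calls of Lamb1 (endothelial against stromal, adjusted p = 0.118, limma), Lama4 (endothelial against osteoprogenitor, 0.116) and Nid2 (osteoprogenitor against stromal, 0.131) were lost with the block.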
